A study of Homo sapiens with 7 samples.

Results

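The genes described here are 10 ligands and receptors of the TGF-beta and BMP signalling families: TGFB1, TGFB2, TGFB3, TGFBR1, TGFBR2, TGFBR3, BMP2, BMP4, BMP7 and BMPR1A. They were selected as a named family, with earlier results of these data known, and all 10 were found among the 60234 genes of the deposited expression table. The cells were cardiomyocytes made from WTC-11, an established human induced pluripotent stem cell line, by a small-molecule protocol and then matured for 35 days. Both groups received an ASO (antisense oligonucleotide, a short synthetic strand that base-pairs with its target RNA) at 2 uM for 96 h without a transfection aid. One group of 3 libraries had a scrambled ASO and the other, of 4 libraries, an ASO against MYH7B, so there is no untreated group and every library carries ASO exposure. The comparison asks how these signalling genes stood where the MYH7B transcript, which the study title calls a regulatory long noncoding RNA of the human heart, had been lowered. All cells are of 1 line, and the labels do not say whether the libraries came from separate cultures or differentiations.

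TGF-beta and BMP ligands are secreted dimers that bring together a type I and a type II receptor, both serine/threonine kinases. The type II receptor phosphorylates the type I receptor, which phosphorylates SMAD proteins; these join SMAD4 and act on genes in the nucleus. TGF-beta ligands act mainly through SMAD2 and SMAD3, and BMP ligands through SMAD1, SMAD5 and SMAD9. In the heart, BMP signals take part in forming the cardiac lineage and the valves, and TGF-beta is known for driving matrix production by fibroblasts.

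Values are in TPM, a relative transcript abundance that is scaled for transcript length and so allows levels of different genes to be set side by side. TPM keeps no sequencing depth, and the depth of each library is unknown. The target was low in the libraries labelled as treated: MYH7B had 23.0, 36.5 and 25.1 TPM in scrambled ASO replicates 1 to 3 and 9.30, 5.65 and 6.31 TPM in MYH7B ASO replicates 2 to 4. Its log2 fold change was -1.85 with a limma adjusted p of 0.0109. The column of MYH7B ASO replicate 1 (MYH7B at 1.29 TPM) was deposited out of step with the gene names and was left out of the fit. It was put back in order by the gene identifiers of GENCODE 29, and its values are given as a separate check. That library also stood apart in composition, with 17.2% of its TPM from mitochondrially encoded genes against 27.4% to 33.6% in the other 6. Between 15290 and 16207 genes reached 1 TPM in those 6 libraries.

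Cardiomyocyte markers were abundant, and markers of other cell types were present beside them. The 10 cardiomyocyte markers summed to 9751 to 10877 TPM with the scrambled ASO and 8280 to 10540 TPM with the MYH7B ASO, and none was called by limma. At an unadjusted limma p under 0.05 there were 5 of these 10, all lower, beside 15.2% of all genes. Among them was RYR2 at 34.1 against 16.3 TPM on average (limma adjusted p = 0.0536), which the authors' deposited table called lower. The means of MYH7 were 962 and 394 TPM, with overlapping groups, and those of ACTN2 200.1 and 143 TPM. Log2 fold changes were positive for 3 of the 10 markers. These were TNNI1 (1198 against 1662 TPM on average, groups not overlapping), NKX2-5 (104 against 144 TPM) and MYH6 (1169 against 1272 TPM). MYH7B ASO replicate 2 stood far above replicates 3 and 4 for TNNI1 (2324, 1317 and 1344 TPM) and NKX2-5 (210, 117 and 104 TPM). The groups of 3 did not overlap for 4 lower markers and 1 higher marker of the 10, beside 14.1% and 7.11% of all genes. The 10 fibroblast markers summed to 2922, 3068 and 5267 TPM in scrambled ASO replicates 1 to 3 and to 1755, 2109 and 1373 TPM in MYH7B ASO replicates 2 to 4. This sum is mostly collagen: with the scrambled ASO, COL1A1, COL1A2 and COL3A1 averaged 1667, 765 and 1099 TPM of 3753 TPM. Among these fibroblast markers, limma called COL1A2 and LUM lower, beside 1.48% of all genes. PDGFRA and TCF21 had higher values, with groups that did not overlap, but without a limma call (limma adjusted p = 0.152 and 0.168). Both were called higher in the authors' deposited table, where 5 of the 10 fibroblast markers were called lower. Of all genes there, 3.02% were called higher and 5.69% lower. The 6 smooth muscle markers summed to 975 to 1364 TPM against 581 to 761 TPM, with MYH11 called lower by limma. The authors' deposited table called MYH11, ACTA2 and TAGLN lower and none of the 6 higher. Log2 fold changes were negative for 4 of the 6 and positive for CNN1 and SMTN, whose groups overlapped. CNN1 averaged 182 against 215 TPM and SMTN 10.8 against 11.2 TPM. Of 7 endothelial markers, VWF, TIE1 and CLDN5 stayed under 1 TPM, and PECAM1 and CDH5 did not exceed 1.12 TPM. The other endothelial markers were expressed: TEK had 11.4, 8.08 and 12.2 TPM against 3.23, 6.86 and 3.73 TPM (limma adjusted p = 0.111; called lower in the authors' deposited table), and KDR had 6.89 to 9.18 TPM against 7.43 to 9.82 TPM. The 5 epicardial markers summed to 320 to 389 TPM against 239 to 371 TPM. In bulk RNA, fewer cells of a type and less RNA per cell cannot be told apart, and this holds for every value that follows.

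Upstream sequences are shown for TGFB2 and TGFBR1, which were among the 3 genes of the 10 whose groups did not overlap. TEAD factors bind many promoters active in heart muscle and the pathway ends in SMAD proteins, so short motifs tied to these factors were searched. Each sequence is the 250 bases before a RefSeq transcription start on GRCh38.p14, 5′ to 3′ on the gene's strand. RefSeq windows were matched for 8 of the 10 genes, but not for BMP7 or for BMP2, whose groups did not overlap either. TGFBR1 has 8 windows, of which the one nearest its principal GENCODE start, 6 bases away, is printed. The TGFB2 window has its start 899 bases from the principal GENCODE start of that gene. Capitals mark, on either strand, the motif CATTCC for TEAD factors, CAGAC for SMAD proteins, GGCGCC for SMAD proteins that answer to BMP, and TATAAA of core promoters. GTCTG marks a SMAD motif on the opposite strand.
TGFB2, chr1:218345086-218345335, plus strand: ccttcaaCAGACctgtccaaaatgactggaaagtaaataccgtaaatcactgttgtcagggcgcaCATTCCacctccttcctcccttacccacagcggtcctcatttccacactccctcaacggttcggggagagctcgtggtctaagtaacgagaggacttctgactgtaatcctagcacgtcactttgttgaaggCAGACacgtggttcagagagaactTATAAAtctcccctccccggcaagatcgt
TGFBR1, chr9:99104833-99105082, plus strand: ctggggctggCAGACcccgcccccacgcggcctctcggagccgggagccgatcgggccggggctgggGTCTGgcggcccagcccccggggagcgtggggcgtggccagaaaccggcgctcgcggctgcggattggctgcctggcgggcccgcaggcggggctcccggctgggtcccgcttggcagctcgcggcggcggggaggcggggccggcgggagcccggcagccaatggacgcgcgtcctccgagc
The TGFB2 window held 1 CATTCC, 2 CAGAC and 1 TATAAA, with a GC content of 50.4%. The TGFBR1 window held 2 CAGAC and none of the other motifs, with a GC content of 81.2%. Among the TGFBR1 windows not printed, one held 1 CATTCC and another 2 GGCGCC. Among all 35116 RefSeq windows of this length, 11.9% held CATTCC, 38.0% CAGAC, 16.4% GGCGCC and 10.7% TATAAA, and the median GC content was 58.0%. A match describes letters only, and no binding was measured in these cells.

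With the scrambled ASO, the most abundant of the 10 transcripts was BMP4 at 63.6 ± 9.91 TPM (SD, n = 3). BMP7 followed at 53.4 ± 5.24 TPM and BMP2 at 48.1 ± 2.69 TPM. The TGF-beta ligands came next, with TGFB2 at 44.9 ± 8.99, TGFB1 at 38.9 ± 8.18 and TGFB3 at 29.3 ± 9.22 TPM. Every receptor mean lay below every ligand mean: TGFBR1 had 24.5 ± 1.30, BMPR1A 22.5 ± 1.59, TGFBR2 7.55 ± 1.47 and TGFBR3 2.63 ± 2.36 TPM. Only the steps from BMPR1A to TGFBR2 and from TGFBR2 to TGFBR3 separated neighbours without overlap between libraries. With the MYH7B ASO, BMP4 was again first by its mean (75.4 ± 27.0 TPM, SD, n = 3) and TGFBR3 last (1.67 ± 0.33 TPM). BMP2 and then TGFB2 followed BMP4 there, both above BMP7 by their means. TGFB3 and TGFBR1 stood below BMPR1A, although the ranges of BMPR1A and TGFB3 overlapped.

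**Figure D1:**
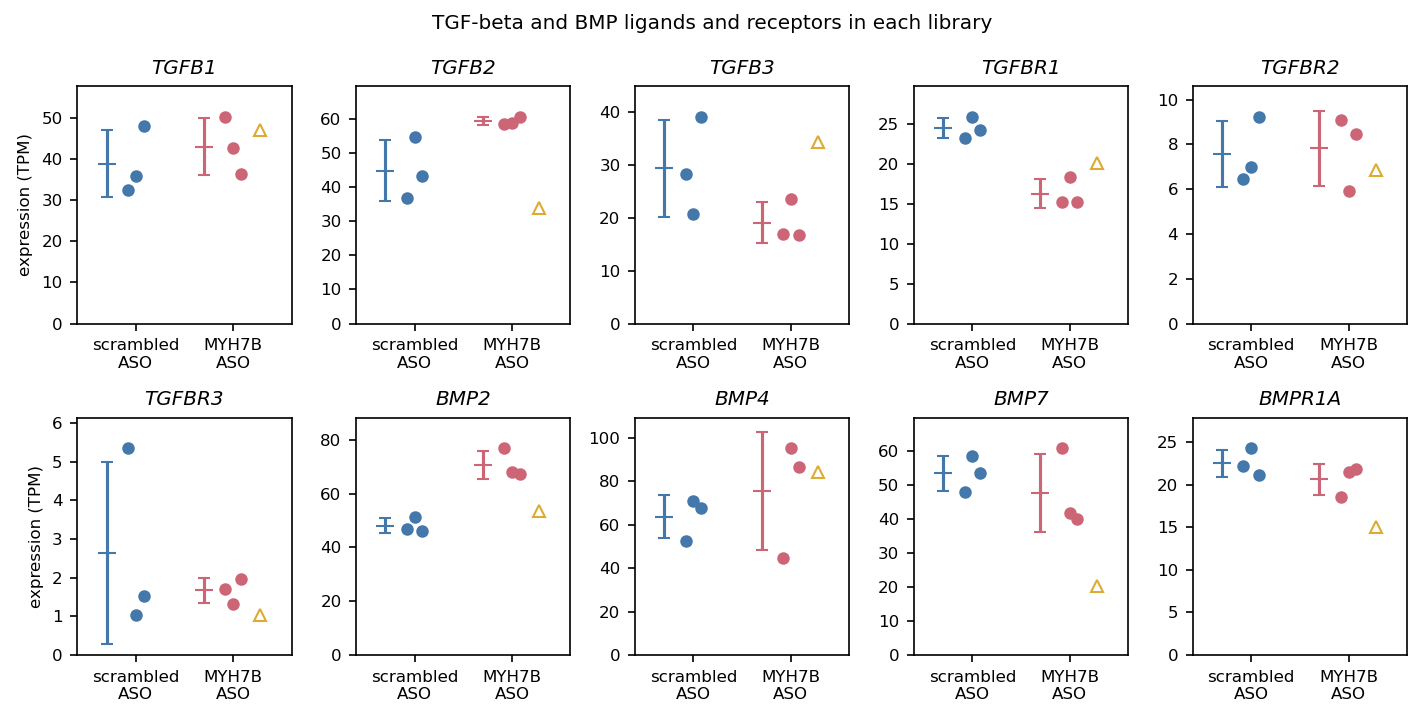
Expression in TPM (vertical axis, linear from 0) of the 10 genes in each library, with scrambled ASO replicates in blue and MYH7B ASO replicates 2 to 4 in red. Horizontal ticks with bars are the mean and SD of 3 libraries, and the open triangle is the reordered MYH7B ASO replicate 1, which is not in the mean. BMP2 and TGFBR1 keep all libraries of one group apart from the other, triangle included, while the triangle of TGFB2 falls at 33.9 TPM, below the scrambled libraries.

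None of the 10 genes passed limma at an adjusted p under 0.05 over all genes, where 265 of 15988 tested genes did (1.66%, of which 0.181% of all tested higher and 1.48% lower). At an unadjusted limma p under 0.05 there were 4 of the 10, TGFB2, TGFB3, TGFBR1 and BMP2, beside 15.2% of all genes. The groups of 3 did not overlap for 3 of the 10, beside 21.2% of all genes. Of those, 2 were higher with the MYH7B ASO (7.11% of all genes) and 1 was lower (14.1%). With replicate 1 in its restored order, 2 of the 10 kept apart, BMP2 and TGFBR1, beside 14.9% of all genes. In the authors' deposited table, at an adjusted p-value under 0.05, BMP2 was higher and TGFBR1 lower, beside 8.71% of the genes with an adjusted p-value there (3.02% higher and 5.69% lower). Log2 fold changes were positive for 5 of the 10 and negative for 5, and their median was -0.04, the same as the median of -0.04 over all genes. The log2(TPM + 1) scale of these fold changes compresses differences of low genes such as TGFBR3. With counts of 3 and 4 among 10 genes, these shares do not set the group of 10 apart from the background.

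**Figure D2:**
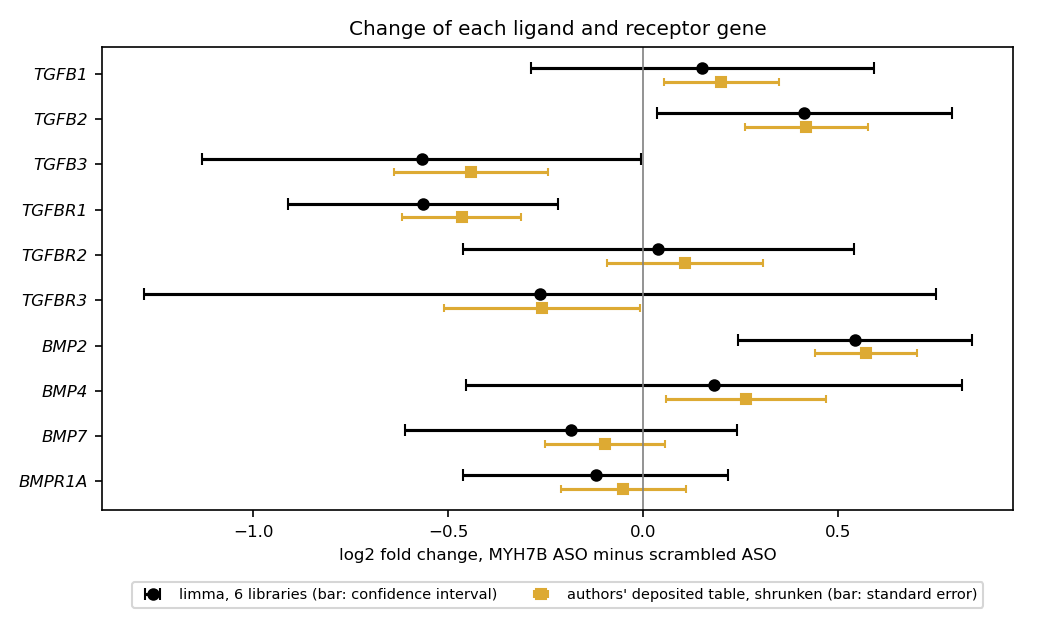
Log2 fold change, MYH7B ASO minus scrambled ASO (horizontal axis), of each of the 10 genes. Black circles are the limma values over 6 libraries with 95% intervals, and yellow squares the shrunken values of the authors' deposited table with standard errors. The limma intervals of BMP2, TGFB2, TGFB3 and TGFBR1 leave out 0; these are single-gene intervals, not adjusted over genes.

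BMP2, a ligand that takes part in specifying heart muscle and in valve formation, had the lowest limma p of the 10. It lies at chr20:6767664-6780280 (GENCODE 29 on GRCh38, as all gene positions here). Its level was 46.9, 51.2 and 46.2 TPM with the scrambled ASO and 76.8, 68.0 and 67.2 TPM in MYH7B ASO replicates 2 to 4. Each treated library thus stood above each scrambled one, and the restored replicate 1, at 53.7 TPM, lay just above them as well. The means were 48.1 ± 2.69 and 70.7 ± 5.34 TPM (SD, n = 3 each), a ratio of 1.47. The log2 fold change was 0.54 (SE 0.13, 95% interval 0.24 to 0.84), for which limma gave an adjusted p of 0.0932. The authors' deposited table listed BMP2 at 0.57 on the log2 scale (SE 0.13), with an adjusted p-value of 0.000502. The direction held in all 16 alternatives tried, in which the limma adjusted p ran from 0.0585 to 0.748. Many of these could not have reversed it. The groups of 3 did not overlap, so neither omission of a library nor a pseudocount could change the sign. The filters and the trend leave the fold change as it is.

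BMP4, another BMP ligand and one used in protocols that steer stem cells to mesoderm, lies at chr14:53949736-53958761. It had 52.3, 70.9 and 67.6 TPM with the scrambled ASO and 44.6, 95.0 and 86.6 TPM with the MYH7B ASO. The treated libraries therefore held both the lowest and the highest values of the 6, and the restored replicate 1 stood at 84.1 TPM. Its log2 fold change of 0.18 (SE 0.28, 95% interval -0.45 to 0.82) had a limma adjusted p of 0.803. The authors' deposited table listed 0.26 with an adjusted p-value of 0.516. Without MYH7B ASO replicate 3 the limma value was -0.02, so its sign rested on that library.

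BMP7, a BMP ligand known for countering TGF-beta effects in fibrosis models, lies at chr20:57168748-57266629. Its values were 48.1, 58.6 and 53.6 TPM against 60.8, 41.9 and 40.2 TPM. MYH7B ASO replicate 2 had the highest value of the 6 libraries, and the other two treated libraries the lowest. The log2 fold change was -0.18 (SE 0.19, 95% interval -0.61 to 0.24), with a limma adjusted p of 0.684. The restored replicate 1 was lower than all of these, at 20.4 TPM, and over 7 libraries the log2 fold change was -0.47. It was -0.37 without MYH7B ASO replicate 2, and -0.12, -0.11 and -0.077 without scrambled ASO replicate 2 and MYH7B ASO replicates 3 and 4.

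Summed over BMP2, BMP4 and BMP7, the level was 147, 181 and 167 TPM with the scrambled ASO and 182, 205 and 194 TPM with the MYH7B ASO. The ranges of the sum did not overlap, but the margin between the nearest libraries was small and the restored replicate 1, at 158 TPM, fell inside the scrambled range. Of that sum, BMP2 made up 27.6% to 31.9% with the scrambled ASO and 33.2% to 42.2% with the MYH7B ASO. The BMP4 share was 38.4% ± 2.55 against 38.5% ± 12.2 (SD, n = 3 each), a difference of 0.133 percentage points (2-sided exact permutation test, p = 1.0; adjusted over 3 shares, 1.0). With 3 libraries against 3, the smallest p this exact test can give is 0.1. Of 8 shares and 4 sums computed within the families, 1 share and 2 sums had groups that did not overlap.

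TGFB1, the most widely expressed TGF-beta ligand and a main driver of fibroblast activation, lies at chr19:41301587-41353911. It had 32.5, 36.0 and 48.1 TPM with the scrambled ASO and 50.3, 42.7 and 36.4 TPM with the MYH7B ASO. The ranges overlapped over most of their width, and the restored replicate 1 lay within them at 47.3 TPM. Its change was 0.15 on the log2 scale (SE 0.19, 95% interval -0.29 to 0.59; limma adjusted p = 0.753). It was 0.037 without scrambled ASO replicate 1 or without MYH7B ASO replicate 2, and 0.31 without scrambled ASO replicate 3 and 0.27 without MYH7B ASO replicate 4. TGFB1 overlaps HNRNPUL1, CCDC97 and TMEM91 on the opposite strand. HNRNPUL1 averaged 101 TPM, and whether the authors' counting used strand is not given in the sources used here, so reads in the overlaps cannot be assigned with certainty.

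TGFB2, the TGF-beta ligand whose deletion in mice gives heart septation defects, lies at chr1:218346235-218444619. Its level was 36.9, 54.6 and 43.2 TPM with the scrambled ASO and 58.5, 59.0 and 60.7 TPM in MYH7B ASO replicates 2 to 4. These 3 treated libraries were close to each other and above every scrambled library. The restored replicate 1, at 33.9 TPM, was below every scrambled library. The log2 fold change over 6 libraries was 0.41 (SE 0.17, 95% interval 0.04 to 0.79), with a limma adjusted p of 0.287, and the authors' deposited table listed 0.42 with an adjusted p-value of 0.0779. Over 7 libraries it was 0.22, and the groups then overlapped. TGFB2-OT1, a noncoding transcript annotated on the same strand inside TGFB2, had 20.4, 50.3 and 57.2 TPM against 75.8, 67.5 and 57.3 TPM. Reads in that stretch cannot be divided between these genes with certainty.

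TGFB3, a TGF-beta ligand needed for palate fusion, lies at chr14:75958099-75982991. It had 28.2, 20.6 and 39.0 TPM with the scrambled ASO and 16.8, 23.5 and 16.7 TPM with the MYH7B ASO. The treated values were low except in replicate 3, which overlapped scrambled ASO replicate 2. TGFB3 had a log2 fold change of -0.57 (SE 0.25, 95% interval -1.13 to -0.005), with an unadjusted limma p of 0.0485 and an adjusted p of 0.323. The restored replicate 1 had 34.2 TPM, within the scrambled range, and over 7 libraries the log2 fold change was -0.36. On leaving out each library the TGFB3 log2 fold change ran from -0.79 to -0.34. The lowest was without scrambled ASO replicate 2 (limma adjusted p = 0.179) and the highest without scrambled ASO replicate 3 (limma adjusted p = 0.477). Scrambled ASO replicate 3, the highest library for TGFB3, was also the highest for the summed fibroblast markers (5267 TPM). The part of these markers in the TGFB3 values was not tested. TGFB3 overlaps IFT43, which averaged 18.0 TPM, on the opposite strand.

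Together the TGF-beta ligands summed to 97.6, 111 and 130 TPM with the scrambled ASO and 126, 125 and 114 TPM with the MYH7B ASO, with overlapping ranges. TGFB2 made up 40.0% ± 8.20 of that sum with the scrambled ASO and 49.0% ± 3.76 with the MYH7B ASO (SD, n = 3 each). The difference of 8.99 percentage points was within the spread of the libraries (2-sided exact permutation test, p = 0.3; adjusted over 3 shares, 0.9). The restored replicate 1 stood at 29.4%, below every scrambled library, and the difference was 4.09 points with 7 libraries, 13.5 without scrambled ASO replicate 2 and 5.56 without scrambled ASO replicate 3. TGFB3 made up 18.5% to 29.9% against 13.4% to 18.8%, which overlapped at one library of each group.

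TGFBR1, the type I receptor kinase for TGF-beta that phosphorylates SMAD2 and SMAD3, lies at chr9:99104038-99154192. It had 23.3, 25.9 and 24.3 TPM with the scrambled ASO and 15.3, 18.4 and 15.2 TPM with the MYH7B ASO. All treated libraries lay below all scrambled ones, and the restored replicate 1 did too, at 20.1 TPM. The means were 24.5 ± 1.30 and 16.3 ± 1.82 TPM (SD, n = 3 each), a ratio of 0.665. The log2 fold change was -0.56 (SE 0.15, 95% interval -0.91 to -0.22), with a limma adjusted p of 0.126. In the authors' deposited table TGFBR1 was listed at -0.46 on the log2 scale (SE 0.15), with an adjusted p-value of 0.0319. Its direction held in all 16 alternatives, with limma adjusted p values from 0.0913 to 0.748. As for BMP2, many of these could not have reversed it, because the groups of 3 did not overlap. The fibroblast marker sum was also lower in each treated library, and its part in the TGFBR1 values was not tested.

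TGFBR2, the type II receptor that binds TGF-beta and activates TGFBR1, lies at chr3:30606502-30694142. Its values were 6.45, 6.99 and 9.23 TPM against 9.08, 5.93 and 8.46 TPM. The ranges nearly coincided, and the log2 fold change was 0.04 (SE 0.22, 95% interval -0.46 to 0.54; limma adjusted p = 0.953). The interval allows changes from 0.726-fold to 1.46-fold. TGFBR3, also called betaglycan, a coreceptor that presents TGFB2 to the signalling receptors, lies at chr1:91680343-91906335. It had 5.34, 1.04 and 1.52 TPM with the scrambled ASO and 1.72, 1.32 and 1.97 TPM with the MYH7B ASO. One library, scrambled ASO replicate 1, stood far above the other 5. The log2 fold change of -0.26 (SE 0.44, limma adjusted p = 0.823) became 0.23 without it.

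The 3 TGF-beta receptors summed to 35.1, 33.9 and 35.1 TPM with the scrambled ASO and 26.1, 25.6 and 25.7 TPM with the MYH7B ASO. The means were 34.7 ± 0.672 and 25.8 ± 0.235 TPM (SD, n = 3 each), and the restored replicate 1 stood between the groups at 28.0 TPM. TGFBR1 was the largest part of this sum in every library, from 66.4% to 76.3% with the scrambled ASO and from 58.6% to 71.7% with the MYH7B ASO. By gene, the means were 24.5 and 16.3 TPM for TGFBR1, 7.55 and 7.82 TPM for TGFBR2, and 2.63 and 1.67 TPM for TGFBR3. The sum thus does not show that each receptor gene was lower. The TGFBR3 share was 7.54% ± 6.68 against 6.48% ± 1.27, a difference of -1.06 percentage points (2-sided exact permutation test, p = 1.0; adjusted over 3 shares, 1.0), and without scrambled ASO replicate 1 it was 2.78 points.

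BMPR1A, a type I receptor for BMP2 and BMP4 and the only BMP receptor among the 10, lies at chr10:86756601-86932838. It had 22.2, 24.2 and 21.1 TPM with the scrambled ASO and 18.6, 21.5 and 21.9 TPM with the MYH7B ASO. The groups overlapped, and the restored replicate 1 was lowest at 15.1 TPM. For BMPR1A the log2 fold change was -0.12 (SE 0.15, 95% interval -0.46 to 0.22; limma adjusted p = 0.745). It was -0.05 without MYH7B ASO replicate 2, -0.069 without scrambled ASO replicate 2 and -0.23 over 7 libraries. While BMP2 had its higher values in the treated libraries, BMPR1A thus had an interval that spans 0. This covers BMPR1A only, and not the other receptors listed below.

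**Figure D3:**
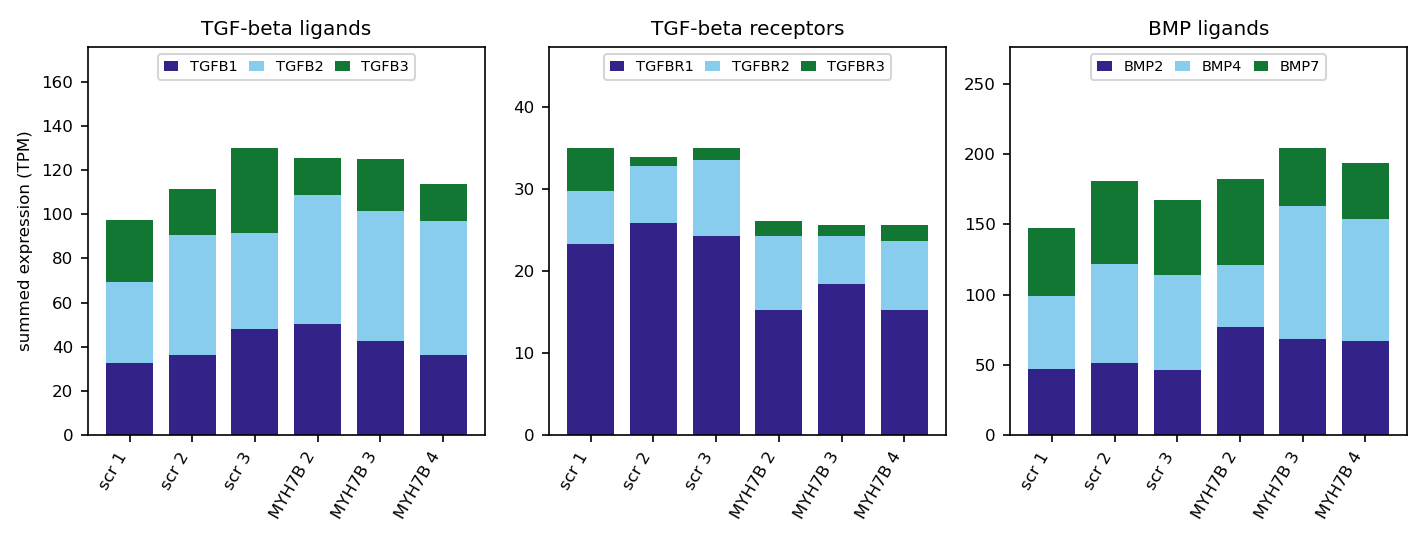
Summed TPM (vertical axis, from 0) of the TGF-beta ligands, the TGF-beta receptors and the BMP ligands in each of the 6 libraries of the fit, with scrambled ASO replicates as scr and MYH7B ASO replicates as MYH7B. Colours divide each bar by gene. The receptor bars stand at 33.9 to 35.1 TPM with the scrambled ASO and at 25.6 to 26.1 TPM with the MYH7B ASO, while the bars of the TGF-beta ligands overlap. TGFBR1 is the largest part of each receptor bar.

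The rest of the pathway was described from 6 lists of other ligands, receptors, extracellular regulators, SMAD proteins and target genes, of which 91 genes were tested. Of these, 2 were called higher and 5 lower by limma, 7.69% in all, beside 1.66% of all genes. The lists were drawn up with earlier results of these data known, and the shares are given as a description. When any single library was left out the count was 1 to 4, and with 7 libraries it was 5. FN1 was called in each of the 6 fits that left out a library, ELN, ITGAV, BGN and COL1A2 in 1 of them each, and BMP5 and GDF11 in none. With 7 libraries BMP5 and COL1A2 were not called (limma adjusted p = 0.350 and 0.207). Genes named below as called only in the authors' deposited table were chosen after their values were seen.

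Of 27 other ligands of the superfamily, 13 were tested, GDF11 and BMP5 were called higher and none was called lower, with a median log2 fold change of 0.43. Over all genes, 0.181% were called higher and 1.48% lower. GDF11, a ligand related to myostatin, had 7.17, 6.49 and 7.15 TPM with the scrambled ASO and 22.6, 16.2 and 16.1 TPM with the MYH7B ASO. Every treated library was above every scrambled one, and the log2 fold change was 1.27 (SE 0.18, limma adjusted p = 0.0162). BMP5, a BMP ligand expressed in the forming heart, had 43.9, 45.5 and 37.8 TPM against 92.5, 67.3 and 74.3 TPM. Its log2 fold change was 0.86 (SE 0.16, limma adjusted p = 0.0421), and with 7 libraries it was 0.62 (limma adjusted p = 0.350). The authors' deposited table called GDF11, BMP5, INHA and GDF2 higher and BMP3, GDF6 and GDF7 lower in this list. These were among 15 with an adjusted p-value there, beside 3.02% of all genes higher and 5.69% lower. With the MYH7B ASO, BMP5 (67.3 to 92.5 TPM) overlapped BMP2 (67.2 to 76.8 TPM) in level, and the summed level of the other ligands was 122 to 155 TPM against 157 to 205 TPM.

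Of 15 other receptors and coreceptors, 10 were tested and limma called none, with 4 at an unadjusted p under 0.05 (15.2% of all genes) and a median log2 fold change of 0.06. BAMBI, a pseudoreceptor that blocks TGF-beta and BMP signalling, was the most abundant, at 140, 133 and 188 TPM against 169, 148 and 121 TPM. Its groups overlapped (limma adjusted p = 0.899). AMHR2, the type II receptor for anti-Müllerian hormone, had 20.5, 20.4 and 23.5 TPM against 30.2, 29.7 and 31.6 TPM. All treated libraries were above the scrambled ones, with a log2 fold change of 0.49 that missed the limma threshold (adjusted p = 0.148), and AMHR2 was called higher in the authors' deposited table (adjusted p-value 0.0368). BMPR2, the main type II receptor for BMP ligands, had 27.4, 27.2 and 24.4 TPM against 18.3, 17.6 and 17.4 TPM. Its log2 fold change of -0.54 had a limma adjusted p of 0.116, and the authors' deposited table called it lower (adjusted p-value 0.0168). BMPR2 was chosen after its values were seen, and the log2 fold changes of this list were positive for 5 genes and negative for 5. Of 11 with an adjusted p-value in the authors' deposited table, 1 was called higher and 1 lower, beside 3.02% and 5.69% of all genes there.

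Among 29 extracellular activators and inhibitors, 22 were tested, none was called higher and BGN and ITGAV were called lower, with a median log2 fold change of -0.46. Over all genes, 1.48% were called lower. ITGAV, the integrin alpha chain that takes part in releasing TGF-beta from its latent form, had 48.4, 48.0 and 56.9 TPM against 30.1, 20.8 and 19.7 TPM. Its log2 fold change was -1.11 (SE 0.19, limma adjusted p = 0.0298). BGN, a small matrix proteoglycan that binds TGF-beta, had 25.4, 26.4 and 54.6 TPM against 9.63, 12.1 and 8.93 TPM. Its log2 fold change was -1.62 (SE 0.29, limma adjusted p = 0.0351). Both were highest in scrambled ASO replicate 3, as was the fibroblast marker sum, whose part in these values was not tested. The authors' deposited table also called LTBP1, LTBP2, FBN1 and FBN2 lower, which encode latent TGF-beta binding proteins and fibrillins that anchor them. Limma called none of these 4. In all, 6 of the 26 listed genes with an adjusted p-value there were called lower and 1 higher, beside 5.69% and 3.02% of all genes. The more abundant LTBP3 and LTBP4 were called in neither, with log2 fold changes of 0.06 and -0.07 (limma adjusted p = 0.918 and 0.933). That table called CHRD, a BMP antagonist below the expression filter of the limma test, higher (log2 fold change 0.76, adjusted p-value 0.0325).

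All 18 SMAD proteins and regulators listed were tested, and limma called none, with 5 at an unadjusted p under 0.05 (15.2% of all genes), all of them lower, and a median log2 fold change of -0.12. FKBP1A, which binds type I receptors and holds them inactive, was the most abundant, at 162, 152 and 212 TPM against 126, 169 and 112 TPM (limma adjusted p = 0.410). SMAD2, which carries the TGF-beta signal, had 73.9, 63.6 and 61.0 TPM against 78.2, 74.9 and 69.3 TPM (limma adjusted p = 0.609). The groups overlapped for both genes. PPM1A, a phosphatase that acts on SMAD2 and SMAD3, was the one gene of this list called in the authors' deposited table, at -0.56 on the log2 scale (adjusted p-value 0.0139). Of all genes there, 5.69% were called lower.

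The TGF-beta target list had the lowest median of the 6, -0.91 over 21 tested genes of 24, with 16 negative and 5 positive. The 5 positive genes were CDKN1A (0.64), JUNB (0.28), SMAD7 (0.25), PMEPA1 (0.21) and SKIL (0.06). The groups did not overlap for 13 lower genes and for 1 higher gene, SMAD7, beside 14.1% and 7.11% of all genes. FN1, ELN and COL1A2 were called lower by limma and none higher, beside 1.48% and 0.181% of all genes. Of the 22 with an adjusted p-value in the authors' deposited table, 13 were called lower and 1 higher, beside 5.69% and 3.02% of all genes there. The 1 called higher was CDKN1A, a cell cycle inhibitor, at 0.58 on the log2 scale (adjusted p-value 0.0338). CDKN1A had 80.0, 60.4 and 120 TPM against 115, 186 and 103 TPM, with overlapping groups (limma adjusted p = 0.345). FN1, the gene of fibronectin, had 600, 481 and 1020 TPM against 125, 154 and 121 TPM, a log2 fold change of -2.32 (SE 0.26, limma adjusted p = 0.00609). ELN, the gene of elastin, had 14.6, 23.3 and 26.6 TPM against 5.31, 6.28 and 6.75 TPM, a log2 fold change of -1.63 (SE 0.23, limma adjusted p = 0.0160). COL1A2, a chain of type I collagen, had 603, 613 and 1079 TPM against 272, 348 and 238 TPM, a log2 fold change of -1.38 (SE 0.24, limma adjusted p = 0.0343). These are matrix genes of fibroblasts and smooth muscle as well as TGF-beta targets, and 6 of the listed targets are also on the fibroblast or smooth muscle marker lists. Without those 6, 15 targets were tested, their median was -0.45, and FN1 and ELN were called lower. The marker sums of fibroblasts and smooth muscle are made up largely of shared genes (COL1A1, COL1A2, COL3A1, ACTA2 and TAGLN). Their lower values are therefore no separate measure beside this list, and the part of cell types in it was not tested.

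The BMP target list, with 15 of 15 tested, had a median of 0.16, with 11 positive and 4 negative, and limma called none. At an unadjusted limma p under 0.05 there were 3, all with positive values, beside 15.2% of all genes. The groups did not overlap for 7, all higher, beside 7.11% of all genes that were higher without overlap. SMAD6 and SMAD7, among these 7, are also on the list of SMAD proteins, and SMAD7 is on the TGF-beta target list too. These genes therefore do not stand for BMP signals alone. ID3, an inhibitor of basic helix-loop-helix factors and a direct BMP target, had 96.6, 136 and 136 TPM against 192, 182 and 164 TPM. Each treated library exceeded each scrambled one, and the log2 fold change was 0.56 (SE 0.16) with a limma adjusted p of 0.159. The authors' deposited table called ID1, ID3 and TBX2 higher, at 0.58, 0.56 and 0.89 on the log2 scale, and none of the list was called lower there. All 15 had an adjusted p-value in it, and 3.02% of all its genes were called higher. In the 6 libraries TBX2 had 10.1, 11.5 and 13.6 TPM against 27.1, 20.1 and 19.3 TPM (limma adjusted p = 0.0764). BAMBI is on this list too, with the overlapping values given above.

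**Figure D4:**
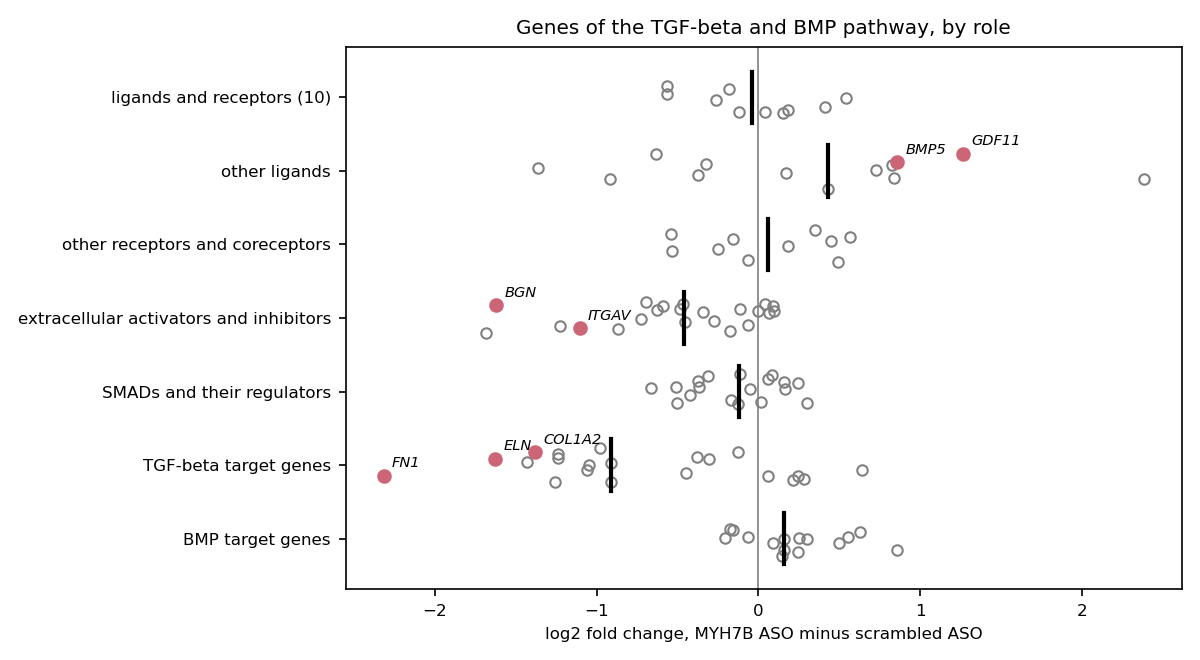
Log2 fold change, MYH7B ASO minus scrambled ASO, over 6 libraries (horizontal axis) for each tested gene, arranged by list; vertical position within a list has no meaning. Filled and labelled points passed limma at an adjusted p under 0.05, open points did not, and black bars are list medians. The bars lie at -0.91 for TGF-beta targets and 0.16 for BMP targets, and the open point farthest to the right is GDF1, listed at 0 in scrambled ASO replicates 1 and 2.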

How the data were processed

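Poly-A selected RNA of 7 libraries was sequenced. The authors deposited TPM values per gene, relative within each library, so depth and counting error are unknown. The authors' deposited comparison table gives a mean normalized count (a signal), a shrunken log2 fold change and standard error, a test score, and raw and adjusted p-values. The submitters' processing notes name DESeq2 and GRCh38.p13; the aligner, quantifier, annotation, strandedness and the libraries behind that table are not given in the sources used here. No aligner setting could therefore be checked.

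The test was limma 3.58.1 (R 4.3.3; lmFit, then eBayes with trend) on log2(TPM + 1) of genes whose mean reached 1 TPM, scrambled ASO replicates 1 to 3 against MYH7B ASO replicates 2 to 4, with Benjamini-Hochberg adjustment over 15988 genes. "Called" means an adjusted p under 0.05. All 10 genes passed the filter. The script was tested on simulated data. The column of MYH7B ASO replicate 1 fills 58721 positions; sorting the 58721 GENCODE 29 identifiers raised its median correlation with the other libraries, across genes, from 0.408 to 0.955, and it entered only as an alternative. Shares were compared with exact permutation tests. Nothing says that replicates were separate cultures, so p-values measure only the spread between these libraries.

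The 10 genes, the pathway lists and the marker lists were chosen with earlier results of these data known. Named genes were all 10 members and, per pathway list, up to 4 called genes with the largest changes or, with fewer than 2 called, the 2 most abundant. Any other gene given with values was chosen after they were seen. Genes most like a called member in pattern were to be named, and none was because no member was called. Other alternatives were pseudocounts, filters, rescaling, removal of mitochondrially encoded genes, no trend, a replicate block by either numbering, and omission of each library in turn. Python 3.11.15, pandas 2.3.3, numpy 2.4.6, scipy 1.17.1 and matplotlib 3.10.9 made the tables and plots. Sequences are from RefSeq (GRCh38.p14).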

Additional observations from a re-analysis of the deposited data

Results flagged for a closer look

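Among the 13 measures examined over the 4 MYH7B ASO libraries (10 genes and 3 shares), 1 had a library far from the others. TGFB2 was at 33.9 TPM in the restored MYH7B ASO replicate 1, while the other 3 libraries had 58.5, 59.0 and 60.7 TPM. The gap was 0.919 of the whole range, beyond Dixon's 95% critical value for 4 samples. Chance gives such a gap in about 1 of 20 groups. That library also had 17.2% of its TPM from mitochondrially encoded genes and 14.4% from RN7SL1 and RN7SL2, against 27.4% to 33.6% and 0.901% to 6.17% in the others, and its values come from a column whose order was restored; the part of these in its TGFB2 value was not tested.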

How the results depend on the processing

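None of the 10 genes was called by limma in any of the 16 alternatives. BMP2, TGFB2, TGFB3, TGFBR1, BMP7 and BMPR1A kept their direction in all 16. TGFBR3 had 15 alternatives, being removed by a minimum mean of 5 TPM. The filters and the trend leave the fold change of a tested gene as it is. For BMP2, TGFB2 and TGFBR1, whose groups of 3 did not overlap, omission of a library could not reverse it either. The count of other pathway genes called (7) was 0 with no filter, 12 with a minimum mean of 5 TPM, 11 with median ratios, 3 with no trend, and 1 to 4 on leaving out each library. The count over all genes (265) was 40 with no filter, where more genes were tested, 150 with no trend, 170 with 7 libraries, and 53 to 149 on leaving out each library. With the replicate block by title number, and with that by description number, limma called 0 pathway genes and 0 of all genes; at an unadjusted p under 0.05 these fits had 1718 and 1096 genes. Each block rests on 2 shared numbers, whose libraries had correlations of deviations of 0.0759 and 0.110 (title) and -0.0729 and -0.0387 (description), so the numbers were not taken to pair the libraries.

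Some small values changed sign, and the cause was not tested. With the replicate block by title number TGFBR2 was -0.11, TGFBR3 0.15, BMP4 -0.086, the TGFBR3 share 2.18 points and the BMP4 share -4.38 points. With the replicate block by description number TGFB1 was -0.078, TGFBR2 -0.16 and TGFBR3 0.21. On leaving out each library TGFBR2 ran from -0.066 to 0.20, TGFBR3 from -0.59 to 0.23, BMP4 from -0.0198 to 0.52, the TGFBR3 share from -3.30 to 2.78 points and the BMP4 share from -3.81 to 7.15 points. Rescaling by median ratios moved the share of higher calls over all genes from 10.9% to 20.2%. Depth is unknown, so its effect on low genes such as TGFBR3 could not be measured.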

Other observations

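CHRD, GDF7 and NOX4 were below the minimum mean of 1 TPM and so were outside the limma test, but were called in the authors' deposited table, CHRD higher and the others lower. All were chosen after their values were seen. GDF7, a BMP ligand, was listed there at -1.08 on the log2 scale, with an adjusted p-value of 0.000246. NOX4, an oxidase gene that TGF-beta is known to induce, was at -0.48 with an adjusted p-value of 0.00889.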
